A study of Mus musculus with 12 samples.

Results

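The 10 genes described here encode paired receptors of myeloid cells, and they were selected by symbol from the 55453 genes counted in mouse skin. They are Cd300a, Cd300lf, Pilra and Pirb, whose products are inhibitory, and Cd300lb, Cd300ld, Clec4n, Clec4d, Clec4e and Clec7a, whose products are activating. All 10 passed the filter on low counts and were among the 18311 genes tested. With only the PBS mice of both genotypes 7 passed, and Cd300lf, Clec4d and Clec4e did not. Those genes therefore entered the tests through their levels in BLM mice. The symbols were chosen with group differences in these same libraries already known, so the differences between groups are a description: counts of receptors past a threshold stand beside the share of all genes past it and support nothing by themselves.

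Skin RNA was sequenced from 12 female C57/BL6 mice in 4 groups of 3, in which WT or Thy-1-deficient (KO) mice had received s.c. bleomycin (BLM) or PBS. The KO mice carried a germline deletion of Thy-1, a surface glycoprotein of fibroblasts and lymphocytes, so the allele was present in every cell type. Mice were 8 to 12 weeks old. The study's methods give 10 mg/kg of bleomycin daily into the back skin for up to 14 days, whereas the labels give 21 days, and tissue was taken on day 21. The comparisons ask how bleomycin, a drug used to induce skin fibrosis, altered skin RNA with and without Thy-1. Each mouse had its own number and gave 1 library, and mice are named below by that number.

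Paired receptors are families of closely related surface proteins, encoded side by side, in which some members restrain a cell and others activate it. Inhibitory members carry cytoplasmic ITIM motifs that recruit phosphatases, and activating members signal through ITAM adaptors such as Tyrobp (DAP12) and Fcer1g (the Fc receptor gamma chain), or through a motif of their own, to the kinase Syk. They are found mainly on monocytes, macrophages, neutrophils and dendritic cells, which enter or reside in inflamed skin.

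Library totals ranged from 26473700 to 38890450 counts, with a median of 31494965. Thy1 was detected in all libraries, at 104 to 150 CPM (counts relative to the scaled library size) in WT PBS and 231 to 416 in WT BLM mice, and at 45.6 to 96.9 and 84.7 to 128 in the corresponding KO groups. It was lower in KO than in WT mice without overlap within each treatment, but it was not at 0, and which bases the deletion removes is not given in the sources used here. Markers of epidermis averaged 9.40 log2 CPM or more in every mouse and those of fibroblasts 8.48 or more. Libraries differed widely in 19 genes of the growing hair follicle, such as Krt25 and Tchh. Their mean was 9.52 to 9.96 log2 CPM in WT PBS and 0.96 to 4.15 in WT BLM. KO PBS mouse 136 stood at 9.93, whereas mice 137 and 139 stood at 0.68 and 2.89, and KO BLM mouse 141 stood at 9.02 against 5.82 and 6.59 in mice 143 and 144. Hair growth therefore cannot be told apart from bleomycin in WT mice, nor from genotype after bleomycin. Results are given below with and without mice 136 and 141. Without mouse 136, the KO PBS mice left stood below all WT PBS and all KO BLM mice in these genes. Hair growth then cannot be told apart from genotype after PBS, nor from bleomycin in KO mice. Skeletal muscle genes also differed, at 8.47 to 8.99 log2 CPM in WT PBS and 10.16 to 11.49 in WT BLM. They stood at 9.19 to 11.16 in KO PBS and 9.48 to 10.11 in KO BLM mice, so the genotypes did not overlap within either treatment. The part of muscle genes in the results was not tested.

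The CD300 genes lie together on chromosome 11 of the mouse genome (GRCm38.p6, GENCODE annotation), Cd300a at chr11:114890041-114904654 on the plus strand and Cd300lb, Cd300ld and Cd300lf on the minus strand. Clec4n, Clec4d and Clec4e are neighbours on chromosome 6, with Clec4e at chr6:123281789-123289870 on the minus strand, and Clec7a lies farther along the same chromosome. Pilra is on chromosome 5 and Pirb on chromosome 7. Cd300lf lies within Rab37, Cd300lb overlaps a processed pseudogene, Gm11699, and Pilra overlaps Zcwpw1, each on the opposite strand. Whether strand was used in counting is not stated. Of the 50-base words in the exons of Pirb, 34% also occur in other genes, chiefly Gm14548, Pira2 and Lilra6, so its count is uncertain. The share was 7.57% for Pilra, whose words recur in Pilrb1 and Pilrb2.

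RefSeq promoter sequence was at hand for 9 of the 10 genes, all but Clec4n, as 300-base windows that start 250 bases before the transcription start. These windows were searched on both strands for GAGGAAG, a core recognised by the myeloid factor PU.1, and for TTGCNNAA, a C/EBP-like core. GAGGAAG occurred in 6 of the 9 (Cd300a, Cd300lf, Cd300ld, Pilra, Pirb and Clec4d), against 13.6% of 32851 promoters, and TTGCNNAA in 3 (Cd300a, Pilra and Clec4e), against 10.8%. The stricter TTGCGCAA, which is contained in TTGCNNAA, occurred in 0 (0.183% of all promoters), as did the AP-1 core TGANTCA (7.81%). A match is a run of letters and was not tested as a binding site. The 150 bases just upstream of the start are shown for an inhibitory gene of moderate level (Cd300a, chr11:114889891-114890040, plus strand), for Cd300lf and Clec4e, 2 genes close to 0 in PBS skin (chr11:115133993-115134142 and chr6:123289872-123290021, minus strand), and for Pirb, the gene with the smallest bleomycin difference (chr7:3720383-3720532, minus strand). Capitals mark GAGGAAG in Pirb, its reverse complement CTTCCTC in Cd300a and Cd300lf, and TTGCNNAA, read on the opposite strand, in Clec4e.
Cd300a: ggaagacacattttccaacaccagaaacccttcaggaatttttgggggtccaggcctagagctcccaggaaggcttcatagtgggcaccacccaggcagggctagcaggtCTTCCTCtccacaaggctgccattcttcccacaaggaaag
Cd300lf: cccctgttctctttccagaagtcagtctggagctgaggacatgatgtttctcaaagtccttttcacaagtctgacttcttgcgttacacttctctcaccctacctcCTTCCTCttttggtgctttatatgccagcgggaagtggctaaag
Pirb: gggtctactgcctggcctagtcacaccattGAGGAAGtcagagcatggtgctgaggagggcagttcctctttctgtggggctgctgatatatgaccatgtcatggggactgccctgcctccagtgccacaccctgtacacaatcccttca
Clec4e: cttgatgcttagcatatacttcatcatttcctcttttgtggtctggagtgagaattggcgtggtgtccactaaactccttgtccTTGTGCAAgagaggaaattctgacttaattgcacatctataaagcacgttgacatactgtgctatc

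All 10 receptors were higher in bleomycin-treated than in PBS-treated WT skin, with every WT BLM mouse above every WT PBS mouse. The median log2 fold change was 3.13, against 0.02 over all genes tested, and the range ran from 2.05 for Pirb to 6.18 for Clec4e. EdgeR's quasi-likelihood test called 10 of 10 higher, where it called 19.8% of all genes higher and 14.1% lower. Complete separation of the groups in that direction was seen in 28.3% of all genes. With the growing hair genes as a covariate 0 of 10 were called (3 at an unadjusted p under 0.05), and 0.0928% of all genes, and the median log2 fold change was 1.25 in WT and 2.57 in KO. In KO skin the 10 fold changes were all above 0 with a median of 1.74, but only Cd300lf was called. In bulk tissue, more cells of a type and more RNA per cell cannot be told apart.

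**Figure D1:**
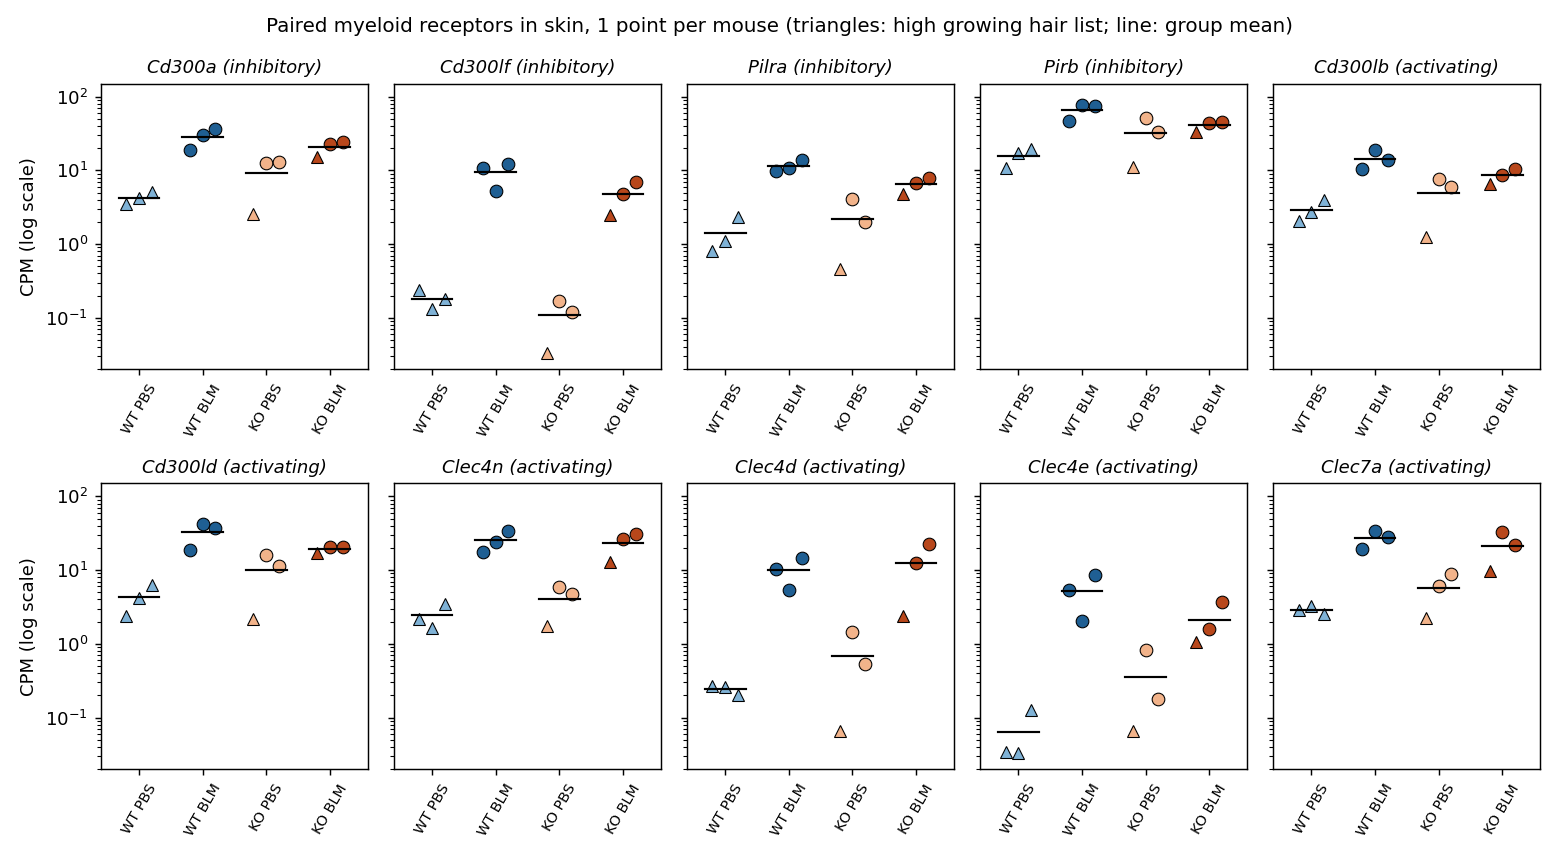
CPM of each receptor in each mouse on a log axis, by group, with a line at the group mean and triangles for mice whose growing hair genes average at least 8 log2 CPM. Every WT BLM mouse lies above every WT PBS mouse in all 10 panels, and KO PBS mouse 136 is the lowest KO PBS mouse in each.

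Among the inhibitory receptors, Cd300a binds phosphatidylserine and phosphatidylethanolamine exposed on dying cells. Its level was 3.45, 4.24 and 5.12 CPM in WT PBS mice 159, 160 and 161, and 18.9, 30.2 and 36.6 CPM in WT BLM mice 145, 146 and 147. KO PBS mice 136, 137 and 139 had 2.56, 12.4 and 13.1 CPM and KO BLM mice 141, 143 and 144 had 14.97, 22.5 and 24.2 CPM. Neither genotype's BLM and PBS mice overlapped, but the gap between the highest KO PBS and the lowest KO BLM mouse was narrow, and mouse 136 sat with the WT PBS mice. The log2 fold change with bleomycin was 2.74 (SE 0.52) in WT and 1.14 (SE 0.50) in KO.

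Cd300lf, which carries ITIMs and restrains myeloid cells, was close to absent from PBS skin. WT PBS mice had 7, 4 and 7 counts (0.237, 0.132 and 0.178 CPM) and KO PBS mice had 1, 6 and 4 counts (0.0332, 0.171 and 0.119 CPM). In WT BLM mice it reached 10.9, 5.22 and 12.3 CPM, and in KO BLM mice 2.48, 4.78 and 6.89 CPM. Both genotypes thus separated completely, by a wide gap. Pooled over mice, the BLM level was 51.7 times the PBS level in WT (95% counting interval 32.5 to 87.7) and 41.4 times in KO (22.9 to 83.5), and the fitted log2 fold changes were 5.67 (SE 0.58) and 5.37 (SE 0.59). Such intervals cover counting error only, not the spread between mice.

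Pilra, an inhibitory receptor for sialylated ligands, had 0.812, 1.12 and 2.32 CPM in WT PBS and 9.87, 10.9 and 13.98 CPM in WT BLM. In KO mice it had 0.465, 4.03 and 1.996 CPM after PBS and 4.81, 6.76 and 7.99 CPM after bleomycin. The BLM mice were above the PBS mice in both genotypes, and all KO BLM mice were below all WT BLM mice. Its log2 fold change was 3.02 (SE 0.64) in WT and 1.58 (SE 0.61) in KO.

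Pirb, the inhibitory receptor for MHC class I, had the highest level of the 10 in PBS skin. WT PBS mice had 10.8, 17.1 and 19.5 CPM and WT BLM mice 46.9, 76.1 and 73.7 CPM, whereas KO PBS mice had 11.1, 51.9 and 33.3 CPM and KO BLM mice 33.3, 43.6 and 45.7 CPM. The KO groups overlapped, with PBS mouse 137 above every KO BLM mouse, and the KO BLM mice lay below the WT BLM mice. The log2 fold change was 2.05 (SE 0.46) in WT and 0.35 (SE 0.45) in KO, the smallest of the 10 in each genotype.

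Cd300lb and Cd300ld are the activating CD300 receptors, and they followed Cd300a. Cd300lb, which couples to Tyrobp, had 2.03, 2.76 and 3.999 CPM in WT PBS and 10.5, 18.9 and 13.8 CPM in WT BLM, and in KO mice 1.26, 7.72 and 5.96 CPM after PBS and 6.61, 8.65 and 10.5 CPM after bleomycin. The WT groups separated and the KO groups overlapped. Cd300ld, which couples to Fcer1g, had 2.40, 4.18 and 6.29 CPM in WT PBS and 18.9, 42.6 and 37.7 CPM in WT BLM, and in KO mice 2.16, 16.3 and 11.4 CPM after PBS and 17.1, 20.7 and 20.5 CPM after bleomycin. Its KO groups separated by less than 1 CPM. The log2 fold changes were 2.29 (SE 0.55) and 0.78 (SE 0.53) for Cd300lb and 2.94 (SE 0.63) and 0.96 (SE 0.59) for Cd300ld, in WT and KO.

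The lectin genes Clec4d and Clec4e encode MCL and Mincle, which recognise mycobacterial glycolipids and signal through Fcer1g. Both genes were like Cd300lf in their low level in PBS skin. Clec4d had 0.271, 0.263 and 0.204 CPM in WT PBS (8 counts in each mouse) and 10.3, 5.41 and 14.4 CPM in WT BLM, and in KO mice 0.0665, 1.43 and 0.536 CPM after PBS and 2.42, 12.4 and 22.3 CPM after bleomycin. Clec4e had 1, 1 and 5 counts in WT PBS (0.0338, 0.0329 and 0.127 CPM) and 5.36, 2.02 and 8.47 CPM in WT BLM, and in KO mice 0.0665, 0.829 and 0.179 CPM after PBS and 1.07, 1.61 and 3.64 CPM after bleomycin. The BLM and PBS mice did not overlap in either genotype for either gene. For Clec4d the pooled ratio was 41.4 in WT (27.6 to 64.9) and 16.8 in KO (13.2 to 21.7). For Clec4e it was 74.7 in WT (36.0 to 187) and 5.43 in KO (3.81 to 7.95), and its KO PBS level rested largely on 1 library, mouse 137, with 29 of 37 counts. Fitted log2 fold changes were 5.34 (SE 1.03) and 4.17 (SE 0.94) for Clec4d, and 6.18 (SE 1.03) and 2.52 (SE 0.84) for Clec4e.

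Clec4n encodes Dectin-2, a receptor for fungal mannans, and Clec7a encodes Dectin-1, the beta-glucan receptor that signals through its own cytoplasmic tyrosine. Clec4n had 2.16, 1.64 and 3.46 CPM in WT PBS and 17.8, 24.4 and 33.6 CPM in WT BLM, and in KO mice 1.73, 5.86 and 4.71 CPM after PBS and 12.7, 26.4 and 30.4 CPM after bleomycin. Clec7a had 2.91, 3.22 and 2.57 CPM in WT PBS and 19.6, 34.3 and 28.3 CPM in WT BLM, and in KO mice 2.23, 6.14 and 8.82 CPM after PBS and 9.76, 32.8 and 21.9 CPM after bleomycin. Both genes separated BLM from PBS mice in both genotypes. The log2 fold changes in WT and KO were 3.37 (SE 0.51) and 2.50 (SE 0.49) for Clec4n, and 3.24 (SE 0.54) and 1.91 (SE 0.51) for Clec7a.

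Per kilobase of exon, the order of the receptors was not the same in PBS and in bleomycin-treated skin. In WT PBS, Pirb led with 3.53 CPM per kb, followed by Clec4n at 1.71 and Cd300ld at 1.62, and Cd300lf and Clec4e stood last at 0.0354 and 0.0130. Only the steps from Pilra (0.458) to Clec4d (0.154) and from Clec4d to Cd300lf showed no overlap between mice. In WT BLM, Clec4n led with 17.8 CPM per kb, then Pirb with 14.7, Cd300ld with 12.5 and Clec7a with 10.4, and Clec4d followed at 6.27. All neighbours in that order overlapped except Pilra (3.75) and Cd300lf (1.84). In KO PBS mice Pirb again led at 7.18 CPM per kb and all neighbours overlapped. In KO BLM mice Clec4n led at 16.3, with Pirb next at 9.14, and the steps without overlap were those from Cd300ld (7.34) to Cd300a (4.34) and from Pilra (2.11) to Cd300lf (0.916).

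In KO mice, 1 of the 10 (Cd300lf) was called higher with bleomycin, where 0.251% of all genes were. Every KO BLM mouse exceeded every KO PBS mouse for 8 receptors, all but Cd300lb and Pirb, against 10.8% of all genes. With DESeq2 the number called was 5, namely Cd300lf, Clec4d, Clec4e, Clec4n and Clec7a, where 6.14% of all genes were called in either direction. Without mice 136 and 141 it was 4 (Cd300lf, Clec4d, Clec4n and Clec7a), where 13.5% of all genes were called higher. Without KO PBS mouse 139, KO BLM mice 143 or 144, or WT PBS mice 159 or 161, each left out alone, it was 0, as over all genes. It was 4 without mouse 136, where 14% of all genes were called in either direction, and 4 without mouse 141, where 6.19% were.

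**Figure D2:**
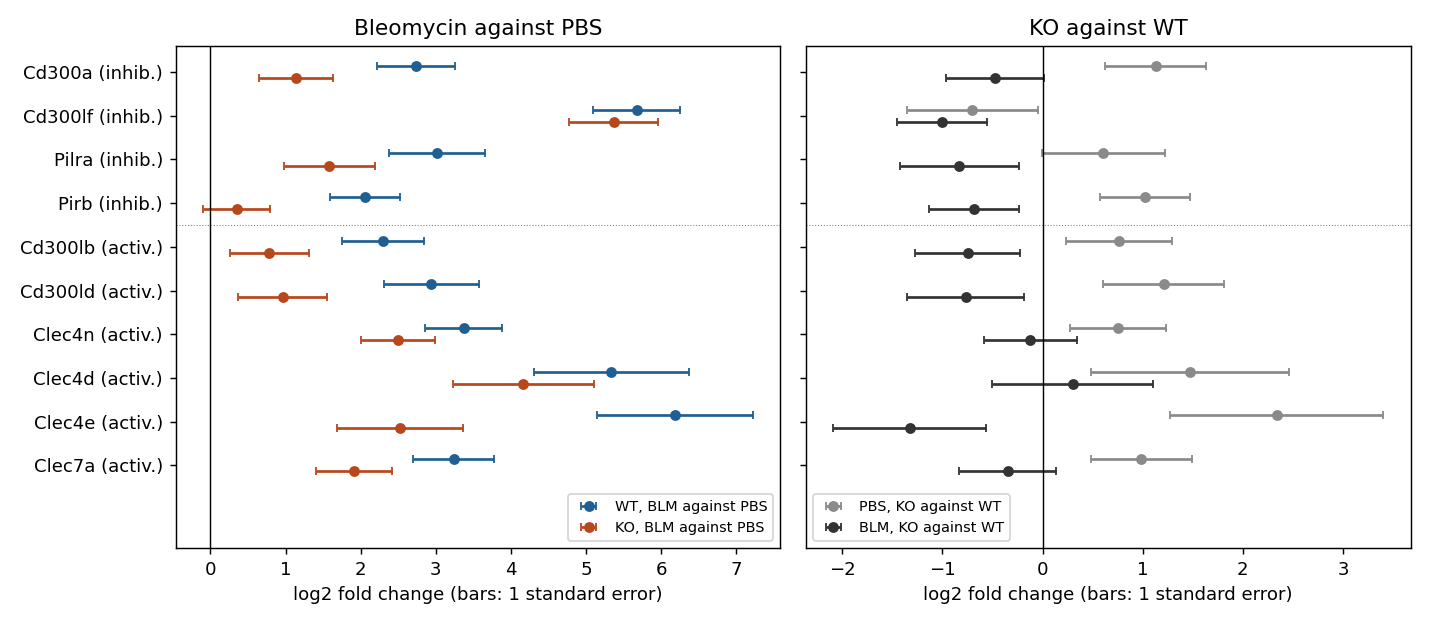
Log2 fold changes of the 10 receptors with bars of 1 standard error, for bleomycin against PBS in WT and KO mice (left) and for KO against WT mice after PBS and after bleomycin (right). The WT bleomycin values run from 2.05 to 6.18 and exceed the KO value for each receptor, and the KO PBS values lie above 0 for 9 of 10.

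Between genotypes, no receptor was called. After PBS, 9 of 10 had higher fitted levels in KO than in WT mice, with a median log2 fold change of 1.004 and values from -0.70 (SE 0.65) for Cd300lf to 2.34 (SE 1.06) for Clec4e. All 10 overlapped between the groups, and mouse 136 had the lowest KO PBS level of each receptor. EdgeR called 0 of 10, and 0.0655% of all genes in either direction, with 2 of 10 and 20.4% of all genes at an unadjusted p under 0.05. DESeq2 also called 0, and 3.83% of all genes. The median was 0.45 without mouse 137. With mice 136 and 141 left out, 7 were called higher in KO (Cd300a, Cd300lb, Cd300ld, Pirb, Clec4d, Clec4n and Clec7a), where 19.6% of all genes were. With mouse 136 alone left out 5 were called, where 36.7% of all genes were called in either direction. Without mouse 136, genotype and hair growth cannot be told apart here. Growing hair genes then averaged 0.68 and 2.89 log2 CPM in KO PBS and 9.52 to 9.96 in WT PBS.

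After bleomycin, 9 of 10 receptors had lower fitted levels in KO than in WT mice, with a median log2 fold change of -0.71. Growing hair genes averaged 5.82 to 9.02 log2 CPM in KO BLM and 0.96 to 4.15 in WT BLM mice. Genotype and hair growth therefore cannot be told apart in this comparison. The values ran from -1.33 (SE 0.76) for Clec4e to 0.30 (SE 0.81) for Clec4d. EdgeR called 0 of 10, and 0.0928% of all genes in either direction, with 1 of 10 and 16.6% of all genes at an unadjusted p under 0.05. DESeq2 called 0 of 10 and 3.34% of all genes. Without mice 136 and 141, 0 were called, 3 of the 10 lay above 0 and the median was -0.57. All KO BLM mice lay below all WT BLM mice for 2 receptors, Pilra and Pirb, and 12.9% of all genes did so.

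The difference of the bleomycin responses, taken as the log2 fold change in KO minus that in WT, was below 0 for all 10, from -0.30 (SE 0.86) for Cd300lf to -3.67 (SE 1.30) for Clec4e, with a median of -1.47. EdgeR called 0 of 10, and 0% of all genes, with 4 of 10 and 31.1% of all genes at an unadjusted p under 0.05. DESeq2 called 2, Pirb and Clec4e, where 18.5% of all genes were called. Without mice 136 and 141, 7 were called lower (Cd300a, Cd300lb, Cd300ld, Pilra, Pirb, Clec4e and Clec7a), where 18.9% of all genes were. In that setting too, genotype and hair growth cannot be told apart among the PBS mice. These comparisons share groups, so that a high KO PBS level enters both the difference from WT PBS and the smaller KO response. With the growing hair genes as a covariate, the median of the difference turned to 1.04 with all 10 above 0, and the KO against WT medians turned to -0.52 after PBS and 0.52 after bleomycin.

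**Figure D3:**
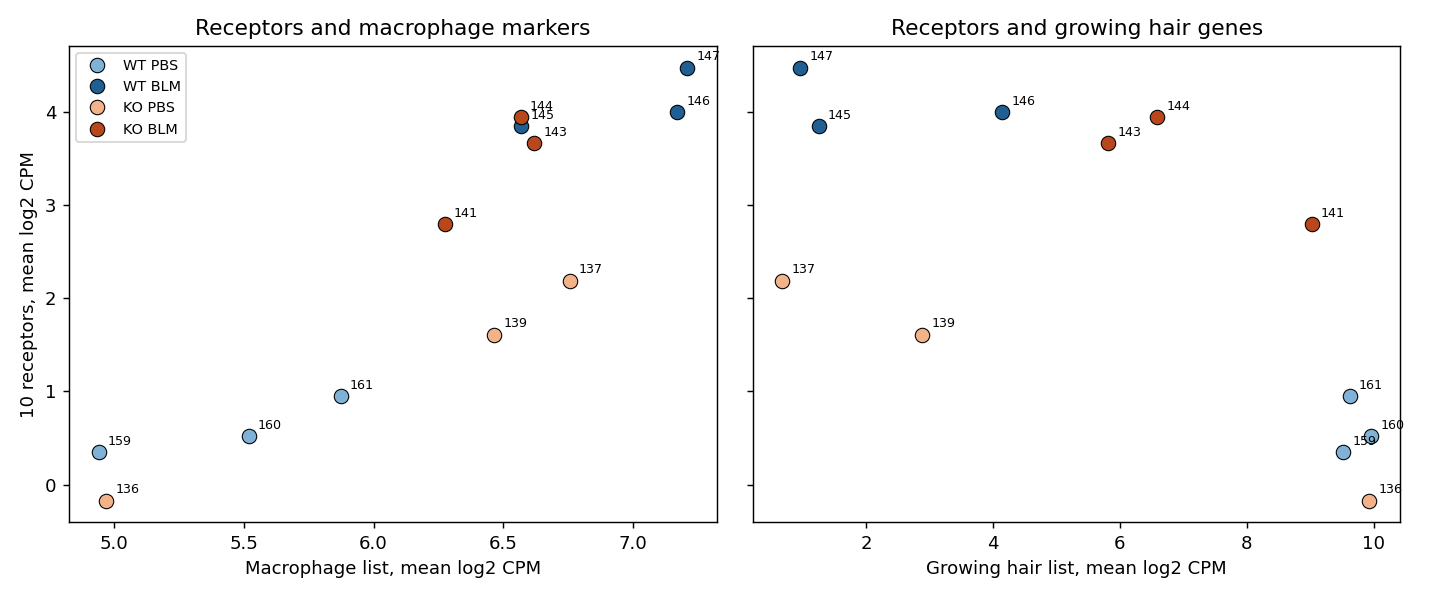
Mean log2 CPM of the 10 receptors in each numbered mouse against the mean of 12 macrophage genes (left) and of 19 growing hair genes (right). BLM mice lie above PBS mice of like macrophage level, and mice 137 and 139 stand apart from the other PBS mice at a low hair level.

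The receptors were set against macrophage genes of the same libraries, since macrophages express most of them. The 12 macrophage genes averaged 4.94 to 5.87 log2 CPM in WT PBS and 6.57 to 7.21 in WT BLM mice, and 4.97 to 6.76 and 6.27 to 6.62 in the corresponding KO groups, and 9 of the 12 were called higher in WT and 0 in KO, where Cd14 had an unadjusted p under 0.05 with a higher level and Cd163 and Mertk with a lower one. The mean of the 10 receptors minus that of the macrophage genes was -4.84 ± 0.22 (SD, n = 3) in WT PBS and -2.88 ± 0.26 in WT BLM mice, and -4.85 ± 0.29 and -3.02 ± 0.43 in the corresponding KO groups. The 6 BLM mice did not overlap the 6 PBS mice in this difference. The mean includes Cd300lf, Clec4d and Clec4e, which passed the filter through their levels in BLM mice. The 10 were also chosen with group differences known, so this separation is a description and supports nothing by itself. Against 5 genes of all leukocytes the values were -3.75 ± 0.10, -2.64 ± 0.21, -4.02 ± 0.08 and -2.71 ± 0.46 in the same order, so the difference between BLM and PBS mice was 1.12 in WT and 1.31 in KO, in place of 1.96 and 1.83. Against the macrophage genes without Cd163, Cd14 and Lyz2 it was 1.89 and 1.64. The last 2 denominators were added after the data were seen, the final one because Cd163, a scavenger receptor of resident macrophages, had a log2 fold change of -1.24 in WT and -3.07 in KO (edgeR adjusted p = 0.12 and 0.068).

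Single receptors differed in this respect. Cd300lf minus the macrophage genes went from -7.49 in WT PBS to -3.82 in WT BLM and from -8.70 to -4.35 in KO, whereas Pirb went from -1.50 to -0.98 and from -1.32 to -1.14. Activating minus inhibitory receptors was -0.84 ± 0.03 in WT PBS and -0.44 ± 0.05 in WT BLM mice, and -0.38 ± 0.15 and -0.27 ± 0.29 in the corresponding KO groups, so the KO groups overlapped. Markers of other myeloid cells differed between lists and genotypes. For these and the macrophage genes, the share of all genes called with bleomycin in WT was 19.8% higher and 14.1% lower. In KO, 0.251% of all genes were called higher, and 20% were at an unadjusted p under 0.05 in edgeR. Of 5 monocyte genes, 3 were called higher in WT and 1 in KO, Ly6c2, with log2 fold changes of 5.05 and 3.45 (edgeR adjusted p = 0.0021 and 0.031). The monocyte median was 2.78 in WT with 4 genes above 0, and 0.50 in KO with 3 above 0. Of 7 dendritic cell genes, 3 were called higher in WT, with a median of 1.13. In KO, edgeR called 0 of these 7 and 3 had an unadjusted p under 0.05, with 2 above 0 and a median of -0.51. Neutrophil genes averaged -0.65 to -0.16 log2 CPM in PBS mice, 1.66 to 2.89 in WT BLM and 0.37, 2.57 and 2.82 in KO BLM mice 141, 143 and 144. In WT, 5 of 7 tested were called higher and 1 lower. In KO, edgeR called 0 and 6 were at an unadjusted p under 0.05, where 20% of all genes were. The neutrophil gene Ly6g had 0 to 2 counts in every mouse. The part of these cell types in the receptor levels was not tested.

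Across the 12 mice, the receptors' profiles were compared as the root mean square difference of log2 CPM after centring. Cd300lb and Pirb (0.28), Cd300a and Cd300ld (0.28) and Cd300a and Cd300lb (0.32) were the closest pairs, and Cd300lf and Pirb (1.98) the farthest apart. The other genes nearest to the mean profile of the 10 were Ctss, a lysosomal protease of antigen-presenting cells, at 0.15, Cd72 and Slc15a3 at 0.23 each, Kcnn4 at 0.26 and Il21r at 0.27. Among the 10, Clec4n was nearest to the mean at 0.27 and Cd300lf farthest at 1.21.

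Relatives of the 10 receptors were followed in 4 further lists of 47 genes. For these and the signalling, ligand and output lists below, the share of all genes called in WT was 19.8% higher and 14.1% lower. With the growing hair genes as a covariate, 0 genes of these lists were called in WT. Of the other CD300 genes, 2 of 7 tested were called higher in WT BLM, Cd300c2 with a log2 fold change of 3.48 (SE 0.50, edgeR adjusted p = 0.0040) and Cd300e with 4.83 (SE 0.74, adjusted p = 0.0044), the second named after its value was seen. All 7 of the other PILR, PIR and LILR genes were called higher, among them Lilr4b (3.31), Lilrb4a (3.05), Pilrb2 (2.53) and Pilrb1 (2.39), with a list median of 2.82. Of the other C-type lectin receptors 7 of 14 were called, including Clec12a (3.45), Clec4a2 (2.89), Clec4a3 (2.62) and Clec4b1 (2.58), and the list median was 1.43. Mrc1, Clec10a and Mgl2, lectins of resident dermal macrophages and dendritic cells, had values of 1.03, 0.16 and 0.58 and were not called. Among TREM, SIRP and Siglec genes 10 of 14 were called, with Sirpb1a (4.32), Sirpb1c (3.95), Trem2 (3.86) and Siglece (2.84), and a median of 3.35. In KO mice edgeR called 0 of the 42 genes tested in these 4 lists, with 17 at an unadjusted p under 0.05, where 20% of all genes were. The list medians in KO mice were -0.41, 0.59, -0.04 and 1.16 in that order.

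**Figure D4:**
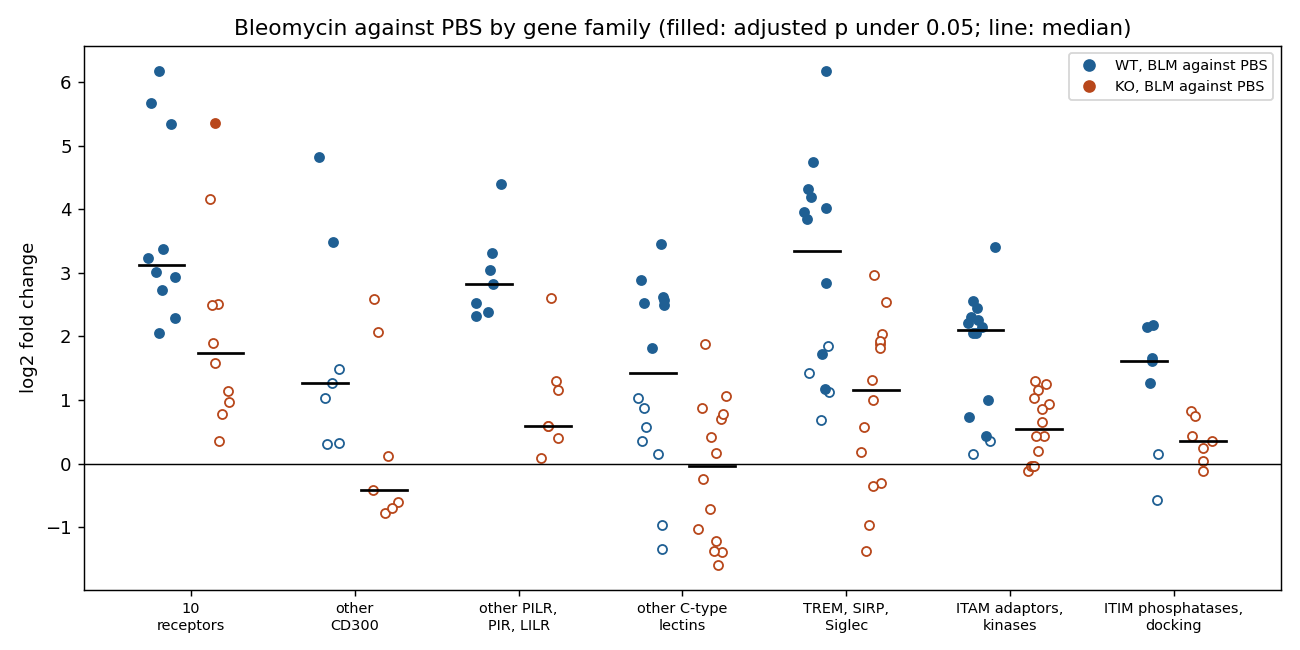
Log2 fold change with bleomycin of each tested gene in the receptor and signalling lists, in WT and KO mice, with filled points for an adjusted p under 0.05 and a line at each list's median. The 10 receptors have a median of 3.13 in WT and 1.74 in KO, and the other CD300 genes 1.26 and -0.41.

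Signalling genes downstream of the receptors were tested next. Of 14 ITAM adaptors and kinases 12 were called higher in WT BLM, among them Fgr (3.40), Tyrobp (2.44), Fcer1g (2.31), Vav1 (2.26), Lyn (2.22), Card9 (2.15), Btk (2.05) and Hcst (2.05), which were well above Plcg2 (0.999), Syk (0.73) and Prkcd (0.43). Bcl10 (0.36) and Malt1 (0.15), partners of Card9, were not called. Of 7 genes listed for inhibitory signalling (phosphatases, docking proteins and the kinase Csk) 5 were called higher. They were Dok2 (2.19), Inpp5d (2.14), Dok3 (1.66), Dok1 (1.61) and Ptpn6 (1.26), the last encoding SHP-1. Ptpn11, which encodes SHP-2, had a log2 fold change of -0.57 (SE 0.22, edgeR adjusted p = 0.063) and was not called, with 244 to 257 CPM in WT PBS and 164 to 177 CPM in WT BLM. Among 8 reported protein ligands, Vim (2.05), Lgals9 (1.72), Angptl2 (1.34) and Rtn4 (0.80) were called higher and Omg (-2.95) lower. EdgeR called 0 of these 29 genes in KO mice, with 7 at an unadjusted p under 0.05, where 20% of all genes were. The 3 list medians in KO mice were 0.54, 0.36 and 0.15.

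Genes induced by C-type lectin receptor signalling gave 9 calls higher and 2 lower of 14 tested in WT, including Il1b (2.19), Tnf (1.60), Nos2 (1.40) and Egr3 (-1.57), with a list median of 2.01. In KO mice the median was 1.77 and 1 gene was called, the chemokine Ccl3 (edgeR adjusted p = 0.039), named after its value was seen, whereas DESeq2 called 21 genes of the 8 lists of relatives, signalling genes, ligands and outputs. Ccl3 had 5 counts pooled over WT PBS and 197 over WT BLM mice, and 14 and 314 in KO mice, for ratios of 45.1 (95% counting interval 19.0 to 140) and 23.7 (13.9 to 43.9).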

How the data were processed

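Bulk RNA-seq gene counts of 12 mouse skin samples were analysed. The authors deposited 1 table of raw counts per gene, made from stranded poly(A) libraries read in pairs, and the aligner, the counter and the annotation are not given in the sources used here. The submitters' processing notes list GRCm38.p6 and MultiQC 1.7. All 12 columns matched a sample by title. The authors tested with DESeq2. Here the counts were fitted with edgeR 4.0.16 in R 4.3.3 (limma 3.58.1): TMM scaling, filterByExpr with a minimum count of 10 and total of 15, 1 mean per group, quasi-likelihood tests and Benjamini-Hochberg adjustment over 18311 genes with a threshold of 0.05. Log2 CPM values carry a prior count of 2. The biological coefficient of variation was 34.9%. Scripts were tested on simulated data. With 3 mice against 3, an exact two-sided permutation test cannot go below 0.1, so none is given.

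The receptors and all gene lists were chosen with earlier results of these data known. Named genes are the 10 receptors, up to 4 called genes per list with the largest WT change and a mean of at least 0 log2 CPM, all called adaptors, phosphatases and ligands, and the 5 nearest profiles. Cd300e and Ccl3, the uncalled lectins and signalling genes and the marker genes were named after their values were seen. Alternatives were RLE and upper-quartile scaling, no filter, a 1 CPM filter, DESeq2 1.42.0, only the groups compared, each mouse left out, mice 136 and 141 left out, and the growing hair mean as a covariate. Added after the data were seen were the hair level of 8 log2 CPM that sets the plotted symbols, the all-leukocyte denominator and the reduced macrophage denominator, the other lists under the alternatives, and the choice of the 4 sequences printed. Proteins were not analysed here, and a gene that the naming rule covers is not reported here. Figures were drawn with matplotlib 3.10.9.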

Additional observations from a re-analysis of the deposited data

How the results depend on the processing

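No paired analysis was possible because every mouse had its own number and none was shared between groups. In WT BLM against WT PBS, 10 receptors were called under every alternative but the hair covariate, where 0 were (3 at an unadjusted p under 0.05), as were 0 genes of the other lists in place of 59, and leaving out single mice gave 8 to 10, with Cd300lb and Pirb lost without WT PBS mouse 159 and Cd300lb without mouse 160. Of all genes, 34% were called in either direction in the main fit, 14% without mouse 159 and 13.9% without mouse 160. Over single mice the share ran from 13.9% to 45.7%. In KO BLM against KO PBS, where 1 was called, no filter gave 3, DESeq2 5, the 2 groups alone 0, the hair covariate 7 and leaving out mice 136 and 141 4, with 0 to 4 over single mice. Genes of the other lists called there numbered 1, and 4, 21, 0, 34 and 22 under the same 5 settings, with 0 to 17 over single mice. In KO PBS against WT PBS, leaving out mice 136 and 141 gave 7 receptors and 46 other genes, DESeq2 3 other genes, and single mice 0 to 5 receptors and 0 to 44 other genes, the 5 receptors without mouse 136. In KO BLM against WT BLM, 0 receptors were called in every setting, DESeq2 and leaving out both mice gave 3 and 4 other genes, and single mice 0 to 7. For the difference of responses, DESeq2 gave 2 receptors and 23 other genes, leaving out both mice 7 and 44, and single mice 0 to 7 and 0 to 49, the 7 receptors without mouse 136. Without mouse 136, 39.9% of all genes were called for this difference in either direction. Single mice gave 40 to 64 other genes in WT.

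Over all genes, calls in KO BLM against KO PBS were 56, and 176 with no filter, 1212 with DESeq2, 0 with the 2 groups alone, 1789 with the hair covariate and 4164 without both mice. For the difference of responses they were 0, and 20, 3279, 0 with the covariate and 7218. In KO PBS against WT PBS they were 12, and 755 with DESeq2, 2 with the 2 groups alone and 7648 without both mice, in KO BLM against WT BLM 17, and 614, 6, 36 with the covariate and 815, and in WT 6222, and 17 with the covariate. The causes were not tested. Relative to the all-leukocyte genes, the receptors' difference with bleomycin was 1.12 in WT and 1.31 in KO. Counting limits Cd300lf, Clec4d and Clec4e, which had 1 to 50 counts in each PBS mouse, and 3 mice per group limit the rest.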
